A study of Mus musculus with 13 samples.

Results

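Chil3, Chil4, Retnla and Rnase2a are 4 mouse genes for secreted proteins whose induction marks alternatively activated macrophages. They were followed through the histone acetylation around them. The members were given by name, as chitinase-like, resistin-like and eosinophil-associated RNase genes. They are 4 of 21896 protein-coding genes of the annotation used, of which 15693 had an acetylated region within 10 kb in at least 1 library. A gene's value is the sum of reads in all islands, the enriched stretches called by the authors, that overlap its span or the 10 kb on either side. The mark is acetylation of lysine 27 on histone H3 (H3K27ac), which is found at active promoters and enhancers, so it reports on regulatory DNA and not on RNA.

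Chil3 (Ym1) and Chil4 (Ym2) encode chitinase-like lectins that keep the fold of the chitinases but have lost the ability to cut chitin. Retnla encodes RELMα (FIZZ1), a cysteine-rich resistin-like protein that restrains type 2 inflammation, and Rnase2a (Ear11) encodes a mouse eosinophil-associated RNase that attracts macrophages. In mouse macrophages, interleukin-4 (IL-4) signals through the transcription factor STAT6 to switch on an alternative activation programme that includes Ym1 and RELMα, while interferon-γ (IFNγ) drives the inflammatory programme.

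The data are 13 H3K27ac ChIP-seq libraries of bone marrow-derived macrophages from C57BL/6 mice on day 7 of differentiation in L929-conditioned medium. In 7 of them no shRNA is named: cells given IL-4 (10 ng/ml) for 2 h or 4 h, cells given IFNγ (100 ng/ml) together with IL-4 (10 ng/ml) for 2 h or 4 h, cells given IFNγ (100 ng/ml) alone for 2 h or 4 h, and untreated cells. The other 6 are shJunB cells, shCEBPb cells and scramble cells, each after 4 h of IFNγ and untreated. No cells with an shRNA received IL-4, and each condition had 1 library. A difference between conditions therefore has no replicate check, and the intervals given are exact binomial 95% intervals of a fold that cover counting error only. Bulk chromatin cannot tell a larger share of acetylated cells from more acetylation per cell.

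Recovered depth ran from 14.3 M reads in the scramble library with IFNγ to 37.4 M in the library with both cytokines at 4 h. Islands held 77.1% to 80.0% of reads in the 7 libraries with no shRNA named and 65.1% to 73.0% in the 6 with an shRNA, so levels of the members were compared within each set. The sums of marker lists below are an exception, because the 9 libraries without IL-4 pool both sets. All 9 matched macrophage markers on a list of 10 had islands in all 13 libraries. Of 9 eosinophil markers 5 had no island in any library: Prg2, Il5ra, Ear1, Ear2 and Ear6. Ear1, Ear2 and Ear6 are RNase A family genes, and whether reads can be placed uniquely at them was not tested. Siglecf, Ccr3 and Epx had islands in all 13 libraries and Prg3 in 10. The summed reads of the eosinophil list were 4533 to 12068 in the 4 libraries with IL-4, against 3874 to 9791 in the 9 without, and those ranges overlap. Of 5 fibroblast markers 1 had an island, in a single library.

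Summed reads of 7 mast cell and basophil markers were 2510 to 5916 with IL-4, against 818 to 2307 without. Nearly all of these reads lay at Ms4a2, while Mcpt4, Mcpt8, Tpsb2 and Fcer1a had no island in any library. Summed reads of 6 airway or lung epithelial markers were 14949 to 31423 with IL-4, against 4466 to 19007 without. Cdh1, also on the list of alternative activation genes, had 14301 normalised reads with IL-4 at 4 h against 125 in untreated cells. Scgb1a1 held the largest part in both these libraries and went the other way, with 16739 normalised reads against 18807 in untreated cells. Krt18 had no island. Lists for neutrophils (4290 to 5169 with IL-4, against 5326 to 8841 without), T cells (3598 to 6754 against 5277 to 10899), B cells (3502 to 6390 against 5887 to 8980) and dendritic cells (9759 to 14068 against 8757 to 22548) were lower with IL-4 or overlapped. The part of the mast cell, basophil and epithelial lists in the results was not tested.

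The promoters are shown first because the islands at each gene differ in whether they reach them. Each sequence is the RefSeq GRCm38.p6 window of 300 bases, 250 before and 50 after the annotated start, 5′ to 3′ on the gene's own strand. Capitals mark matches, on either strand, to 4 short motifs that were searched: TTCNNNNGAA, the palindrome with 4 spacer bases that STAT6 prefers, TTCNNNGAA, the same palindrome with 3 spacer bases, TTGCNNAA of C/EBP factors, and TATAAA, the core promoter box. The AP-1 motif TGANTCA was searched too and had no match in any member. No 2 matches within a promoter overlap.
Chil3: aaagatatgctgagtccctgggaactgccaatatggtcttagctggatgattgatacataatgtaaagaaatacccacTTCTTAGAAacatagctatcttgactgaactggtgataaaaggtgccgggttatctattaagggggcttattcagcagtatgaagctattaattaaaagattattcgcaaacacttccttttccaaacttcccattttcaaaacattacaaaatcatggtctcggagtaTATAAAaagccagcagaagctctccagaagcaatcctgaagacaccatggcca
Chil4: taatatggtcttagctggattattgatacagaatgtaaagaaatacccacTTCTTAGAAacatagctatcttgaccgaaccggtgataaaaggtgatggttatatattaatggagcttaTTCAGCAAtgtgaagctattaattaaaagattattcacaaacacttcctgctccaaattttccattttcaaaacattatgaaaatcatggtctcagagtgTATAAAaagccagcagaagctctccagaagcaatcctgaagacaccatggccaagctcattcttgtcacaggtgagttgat
Retnla: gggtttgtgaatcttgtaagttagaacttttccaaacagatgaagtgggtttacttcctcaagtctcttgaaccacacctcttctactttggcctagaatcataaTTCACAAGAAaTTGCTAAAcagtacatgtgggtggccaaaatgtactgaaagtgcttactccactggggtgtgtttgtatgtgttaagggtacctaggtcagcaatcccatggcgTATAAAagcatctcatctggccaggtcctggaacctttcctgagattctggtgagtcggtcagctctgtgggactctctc
Rnase2a: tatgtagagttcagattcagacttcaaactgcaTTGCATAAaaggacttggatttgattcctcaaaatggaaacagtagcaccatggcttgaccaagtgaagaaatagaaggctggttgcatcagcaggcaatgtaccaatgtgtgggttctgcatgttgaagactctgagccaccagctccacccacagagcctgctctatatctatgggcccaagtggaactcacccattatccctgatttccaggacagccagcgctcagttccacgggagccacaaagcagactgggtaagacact

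The Chil3 window (chr3:106167515-106167814, minus strand) and the Chil4 window (chr3:106219430-106219729, minus strand) are 92.6% identical over 271 aligned bases, and both hold TTCTTAGAA. This match starts 172 bases before the start of Chil3 and 200 bases before that of Chil4. TATAAA begins 3 bases before the annotated start of Chil3 and 31 bases before that of Chil4. The annotated starts thus lie at different points of the aligned sequence. In Retnla (chr16:48842359-48842658, plus strand) the only match of any member to the palindrome with 4 spacer bases, TTCACAAGAA, begins 145 bases before the start. A C/EBP match follows it at 134 to 127 bases before the start. Rnase2a (chr14:51256063-51256362, minus strand) holds 1 C/EBP match, 217 to 210 bases before the start, and no TATAAA. Among 32851 RefSeq promoter windows of the same length, 6.95% hold TTCNNNNGAA, 8.30% TTCNNNGAA, 10.8% TTGCNNAA, 7.81% TGANTCA and 13.6% TATAAA, so a match to each is common and describes letters only.

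An island covered the whole printed window of Chil4 in 4 libraries, those with IL-4 alone or with both cytokines at both times. The Chil3 window was covered in 2, IL-4 at 2 h and at 4 h. The Retnla window was covered in 1, IL-4 at 4 h. The Rnase2a window was covered in 4, IL-4 at 2 h and 4 h, both cytokines at 4 h and IFNγ at 4 h. In the remaining libraries no island touched the window. At Rnase2a this was close with both cytokines at 2 h and in scramble cells with IFNγ. An island began 0.112 kb inside the gene in both, less than 1 step of the 200 bp island grid from the window.

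Around the 4 genes, islands were found mainly in the libraries with IL-4, and none of the 4 had an island within 10 kb in untreated cells. IL-4 gave islands at Chil3, Chil4 and Rnase2a by 2 h and at all 4 genes by 4 h. With IFNγ added, the islands at Chil3 were not called, those at Chil4 were several-fold smaller, and those at Rnase2a were small at 2 h and large at 4 h. The size rule used below asks for a difference of at least 2-fold between libraries and for 50 or more normalised reads in whichever is higher. Reads were normalised by size factors from 14347 regions called in all 13 libraries. A library without an island was given the 5th percentile of its own island reads for this rule alone.

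At 2 h of IL-4, 3 of the 3 members with an island passed the rule as higher than untreated, against 10.6% of 14436 genes tested. At 4 h it was 4 of 4, against 9.19% of 14480 genes. With both cytokines, 2 of 2 passed as higher at 2 h (15.2% of all genes tested) and 3 of 3 at 4 h (14.1%). With IFNγ alone no member had an island at 2 h, where 14.9% of genes tested were higher, and at 4 h 1 of the 2 members with an island, Rnase2a, passed (16.7% of genes). These comparisons share the untreated library. No member had an island in untreated cells. Each was therefore tested only through its island in the treated library, against the filled-in value, and could not be called lower. The shares of all genes also include genes with islands in both libraries, so counts and shares are not like for like. The members are known marker genes, so their passing is a description of this programme and not a test of it.

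**Figure D1:**
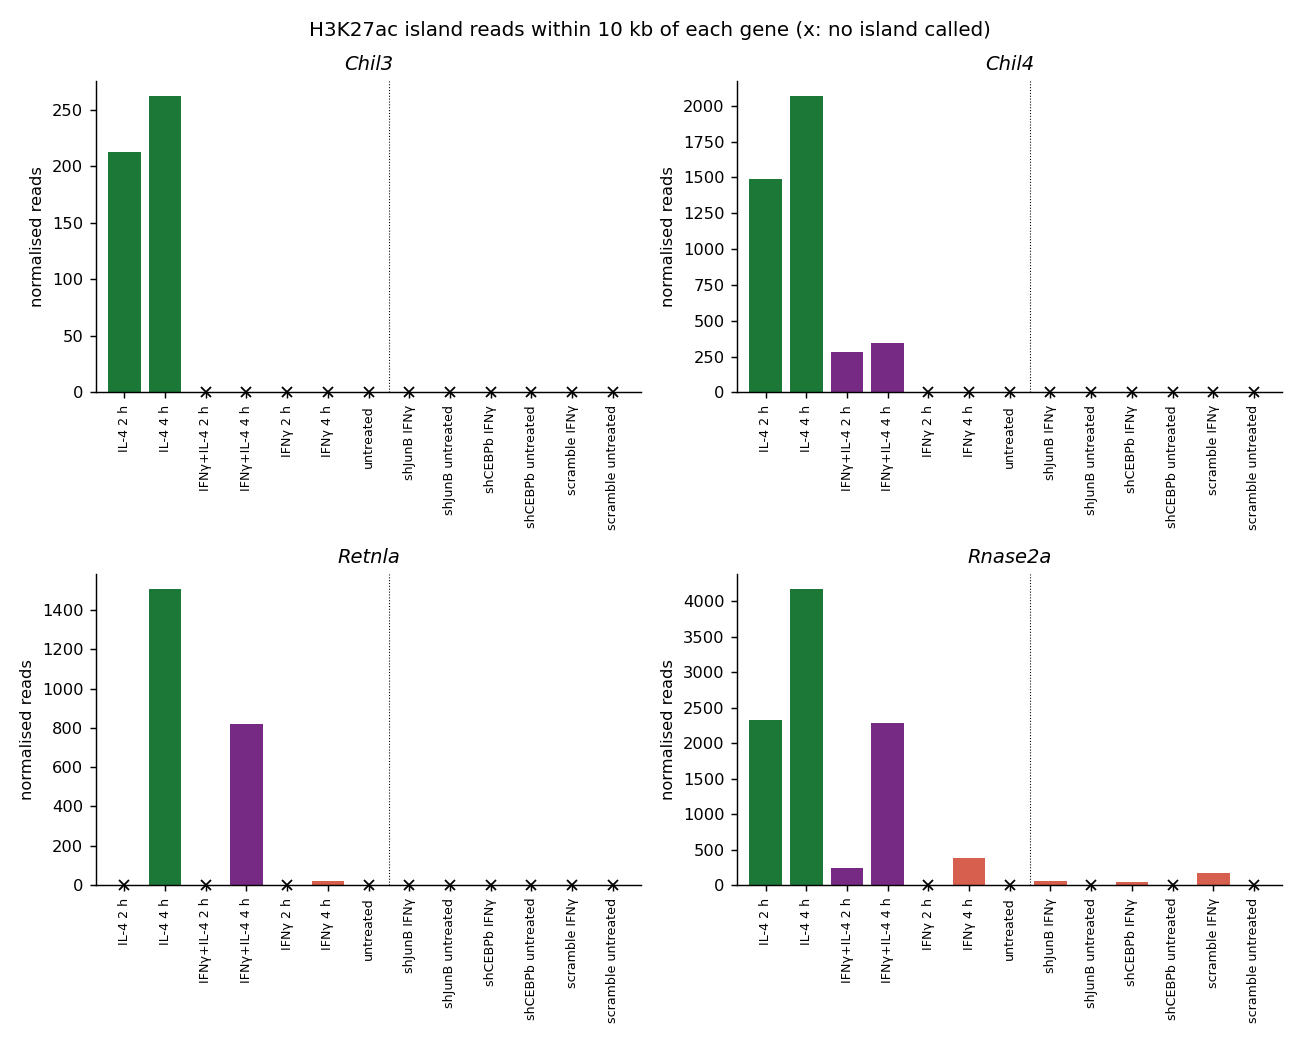
Normalised H3K27ac reads (vertical axis, linear) in islands within 10 kb of each gene in the 13 libraries, 1 library per bar; crosses mark libraries with no island called and the dotted line separates the libraries with no shRNA named, on the left, from those with an shRNA. Bars stand at Chil3 in 2 libraries, at Chil4 in 4, at Retnla in 3 and at Rnase2a in 8, and the highest bar of each gene is IL-4 at 4 h.

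Chil3 lies at chr3:106147554-106167564 (mm10), and its start is 51.9 kb from that of Chil4. It had 212.2 normalised reads at 2 h of IL-4 and 262.2 at 4 h, and no island in the other 11 libraries. The 4 h level was 1.24 times the 2 h level (interval 1.03 to 1.49). The island over its promoter held 212.2 normalised reads at both times, 208 raw reads over 5.2 kb at 2 h and 229 over 4.6 kb at 4 h. It reached 4.24 kb upstream of the start at 2 h and 3.84 kb at 4 h. The later difference is a second, 1.8 kb island of 50.0 normalised reads at the 3′ end of the gene. One more island of 49.1 normalised reads at 4 h began 237 bp beyond the 10 kb window and is not counted.

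Chil4 (chr3:106201491-106219479) carried more reads per kb over its promoter than its neighbour and copy, 101 against 40.8 normalised reads per kb of island at 2 h of IL-4 and 135 against 46.1 at 4 h. Control reads per kb also differed between these islands of near-identical copies, 13.1 against 9.04 at 2 h, and the deposited folds over the control were 4.53 against 2.65. Chil4 had 1487 normalised reads at 2 h of IL-4 and 2070 at 4 h, 283.9 with both cytokines at 2 h and 345.0 at 4 h, and no island in the other 9 libraries. Every library with IL-4 alone was above every library with both cytokines. IL-4 at 4 h over 2 h was 1.39-fold (1.30 to 1.49), and both cytokines at 4 h over 2 h was 1.22-fold (1.05 to 1.41). With IFNγ added, Chil4 was 5.24-fold lower than with IL-4 alone at 2 h (4.61 to 5.97) and 6.00-fold lower at 4 h (5.45 to 6.61).

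Most reads at Chil4 lay in an island running from 0.878 kb inside the gene to 10.9 kb upstream of it (chr3:106218601-106230400), which was the same in both IL-4 libraries. It held 1197 normalised reads at 2 h and 1595 at 4 h. With both cytokines the island stopped 3.72 kb upstream at both times and held 234.1 normalised reads at 2 h and 345.0 at 4 h. Reads per kb of called island were also lower, at 61.6 with both cytokines against 101 with IL-4 alone at 2 h, and 75.0 against 135 at 4 h. The authors' deposited fold over the control for this island was 2.32 with both cytokines against 4.53 with IL-4 alone at 2 h, and 3.35 against 6.16 at 4 h.

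Inside the Chil4 span, an island between 1.68 and 5.48 kb from the start held 49.8 normalised reads with both cytokines and 118 with IL-4 alone at 2 h, and at 4 h it was called with IL-4 alone, at 148. The 3′ end carried an island, 14.1 to 20.1 kb from the start, in the IL-4 libraries only, with 172 normalised reads at 2 h and 281 at 4 h. That was 1.63-fold more at 4 h (1.34 to 1.98), against 1.33-fold (1.24 to 1.44) for the upstream island. No island was called with IFNγ alone, in untreated cells or in any library with an shRNA anywhere between Chil3 and Chil4.

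**Figure D2:**
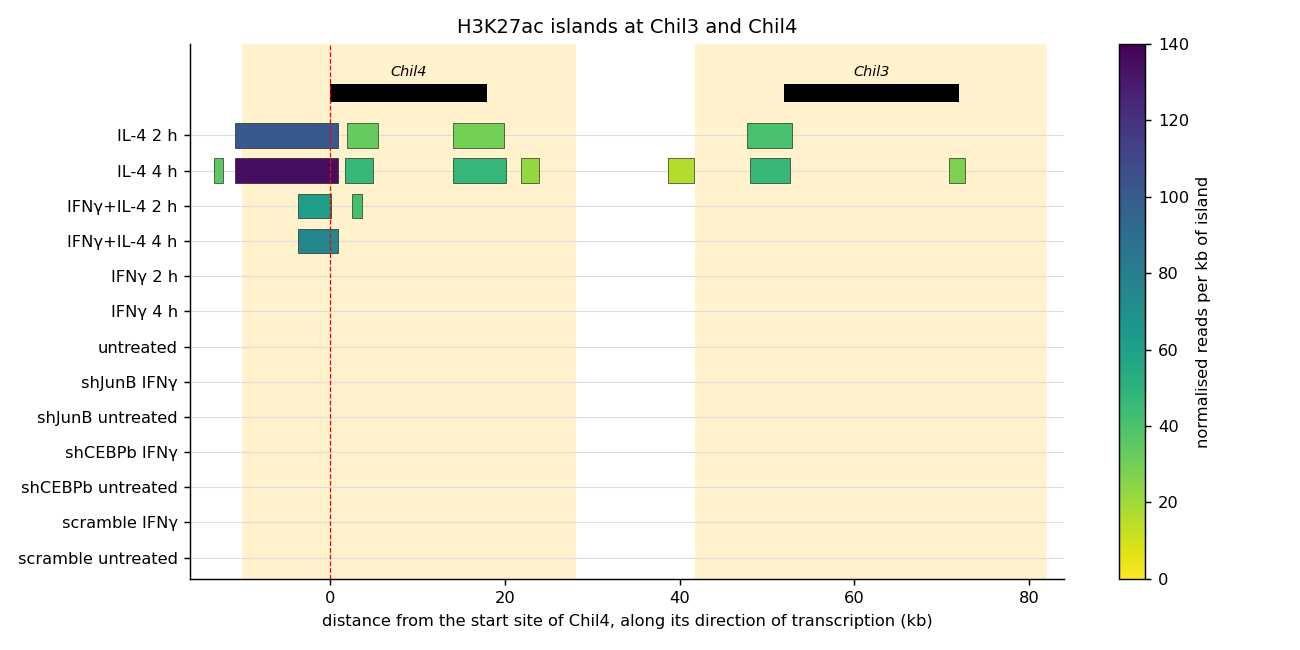
Islands (boxes) at Chil3 and Chil4 in each library against distance from the Chil4 start in kb, along the direction in which both genes are transcribed; colour gives normalised reads per kb, black bars the gene spans and shading the 10 kb windows. The island upstream of Chil4 extends to 10.9 kb with IL-4 alone and to 3.72 kb with both cytokines, and the Chil3 promoter has an island with IL-4 alone.

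Retnla (chr16:48842609-48844461) had 1510 normalised reads at 4 h of IL-4, 817.8 with both cytokines at 4 h and 22.5 with IFNγ alone at 4 h, and no island within 10 kb in the other 10 libraries. It was the only member without an island at 2 h of IL-4. Its value depends on where the window ends, because in 10 libraries an upstream island of 113.6 to 904.6 normalised reads stopped 209 to 409 bp outside the window. It is therefore described element by element.

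Over the Retnla promoter, from 3.01 kb upstream to 1.99 kb downstream of the start (chr16:48839601-48844600), an island was called only in the library with IL-4 at 4 h. It held 291.9 normalised reads (315 raw reads, with a deposited fold of 4.37 over the control). The libraries with both cytokines had none there at either time.

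The upstream element (chr16:48823801-48835600, from 18.8 to 7.01 kb before the start) was called in 12 of 13 libraries, IFNγ at 2 h being the exception. It held 380.5 normalised reads with IL-4 at 2 h and 1143 at 4 h, 113.6 with both cytokines at 2 h and 752.9 at 4 h, 927.1 with IFNγ at 4 h, and 234.2 in untreated cells. All 3 libraries treated for 4 h were above every 2 h library and the untreated one. IL-4 at 4 h was 4.88-fold above untreated (4.19 to 5.71), IFNγ at 4 h 3.96-fold (3.40 to 4.63) and both cytokines at 4 h 3.21-fold (2.76 to 3.76). Both cytokines were at 0.298 of IL-4 alone at 2 h (0.240 to 0.369) and at 0.659 at 4 h (0.607 to 0.715). These sums include differences in called length. The island was 2 kb long with both cytokines at 2 h, 5.2 kb with IL-4 at 2 h and 4.6 kb in untreated cells. Reads per kb of island were 56.8, 73.2 and 50.9 in turn. The same DNA lies within 10 kb of Retnlb, a resistin-like gene of the gut, so it cannot be assigned to Retnla.

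The libraries with an shRNA also had the upstream element: 200.6 normalised reads in shJunB cells with IFNγ against 160.2 untreated, 182.9 in shCEBPb cells with IFNγ against 234.2 untreated, and 251.9 in scramble cells with IFNγ against 397.6 untreated. IFNγ over untreated was thus 1.25-fold in shJunB cells (interval from just above 1 to 1.55), 0.781-fold in shCEBPb cells (0.644 to 0.945) and 0.634-fold in scramble cells (0.521 to 0.767), and no response above 2-fold was seen in them.

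Downstream of Retnla, an island 9.99 to 12.8 kb from the start held 64.9 normalised reads with both cytokines and 75.0 with IL-4 alone at 4 h, a ratio of 0.864 whose interval (0.637 to 1.18) includes 1. A further element, 19.8 to 25.2 kb downstream, lies outside the Retnla window and within 10 kb of Retnlg, another resistin-like gene. It held 46.8 normalised reads with both cytokines against 114 with IL-4 alone at 2 h, and 162 against 588 at 4 h, and 97.3 in untreated scramble cells. Both cytokines were at 0.410 of IL-4 alone at 2 h (0.285 to 0.581) and at 0.275 at 4 h (0.236 to 0.319). At 4 h over 2 h it was 5.15-fold higher with IL-4 (4.21 to 6.35).

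Summed over its window, Retnla was 1.85-fold lower with both cytokines than with IL-4 alone at 4 h (1.71 to 1.99; log2 ratio -0.88), which missed the size rule. Counting only the share of each island that lay inside the window gave 123.6 normalised reads with both cytokines against 677.1 with IL-4 alone, a log2 ratio of -2.45, on the assumption that reads lie evenly along each island. Against IFNγ alone at 4 h, Retnla with both cytokines passed as higher, but the IFNγ value rests on 1 island of 30 reads and the log2 ratio is -0.18 once the whole upstream element is counted, so no direction is given.

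**Figure D3:**
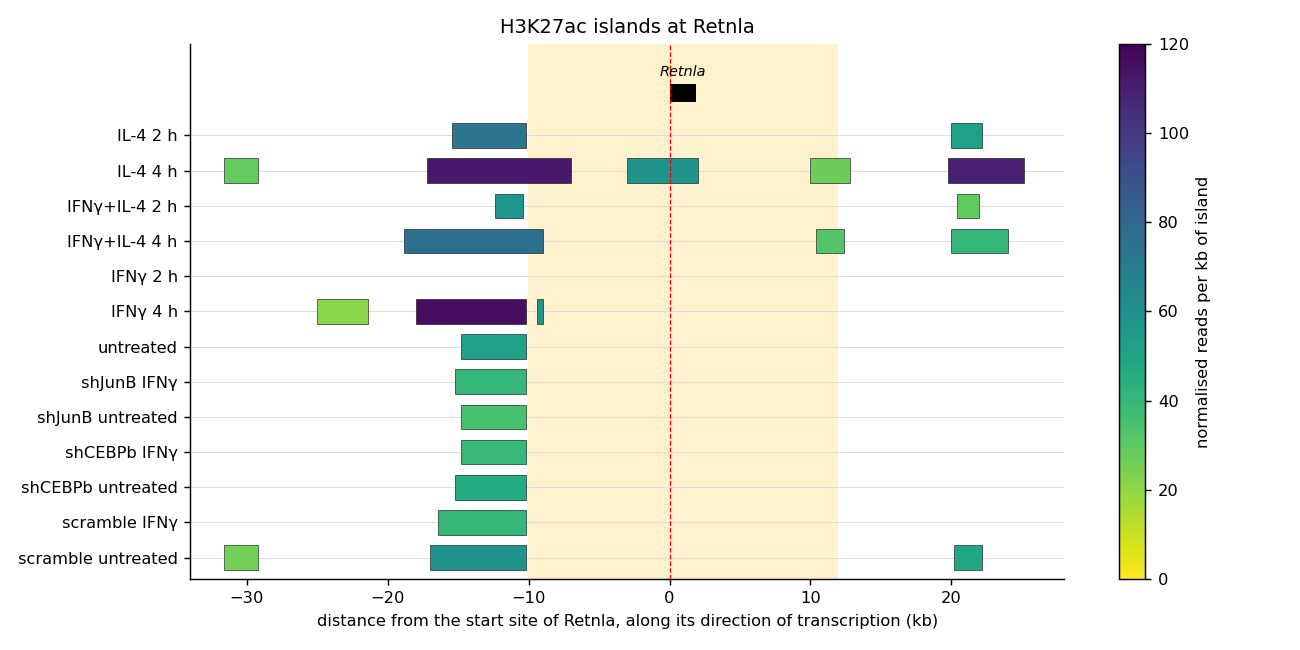
Islands (boxes) at Retnla in each library against distance from its start in kb; colour gives normalised reads per kb, the black bar the gene span and shading the 10 kb window. The upstream element appears in 12 libraries and mostly ends just left of the shaded window, while the box over the start is present only in IL-4 at 4 h.

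Rnase2a (chr14:51255261-51256112) had an island in more libraries than the other members, 8 of 13. It held 2333 normalised reads with IL-4 at 2 h and 4182 at 4 h, 235.1 with both cytokines at 2 h and 2285 at 4 h, and 385.5 with IFNγ alone at 4 h. It had no island in untreated cells or with IFNγ at 2 h. IL-4 at 4 h was the highest library. IL-4 at 2 h and both cytokines at 4 h were close, and their order turns round when the span alone or shares inside the window are counted. The 4 h level was 1.79-fold the 2 h level with IL-4 (1.70 to 1.89) and 9.72-fold with both cytokines (8.52 to 11.1). With both cytokines at 2 h, an island of 554 normalised reads (chr14:51235801-51243800) lay outside the window and was not counted. At 4 h the same DNA was part of an island counted whole. From the start to 37.3 kb downstream, the same folds were 1.21 with IL-4 (1.16 to 1.27) and 3.11 with both cytokines (2.89 to 3.35).

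With both cytokines Rnase2a was 9.92-fold lower than with IL-4 alone at 2 h (8.68 to 11.4) and 1.83-fold lower at 4 h (1.75 to 1.91), and the 4 h difference missed the size rule. Against IFNγ alone at 4 h, Rnase2a with both cytokines was 5.93-fold higher (5.40 to 6.51). These whole-island sums reach far beyond the gene: with IL-4 at 4 h a single island ran 38 kb (chr14:51218801-51256800). Counting the share of islands inside the window gave 235.1 normalised reads with both cytokines against 816.6 with IL-4 alone at 2 h, and 1270 against 1361 at 4 h. The log2 ratio was then -1.80 at 2 h and -0.10 at 4 h. These shares spread the reads of an island evenly over its length, since the files give 1 count per island. The islands that touch the gene span itself gave -1.63 at 2 h and -0.89 at 4 h.

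The island at the Rnase2a start differed in reach as well. With IL-4 it began 0.688 kb upstream of the start at both times, and so did the island with both cytokines at 4 h. With both cytokines at 2 h it began 0.112 kb inside the gene and ran to 6.31 kb. IFNγ alone at 4 h gave an island from 0.488 kb upstream to 7.11 kb downstream.

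**Figure D4:**
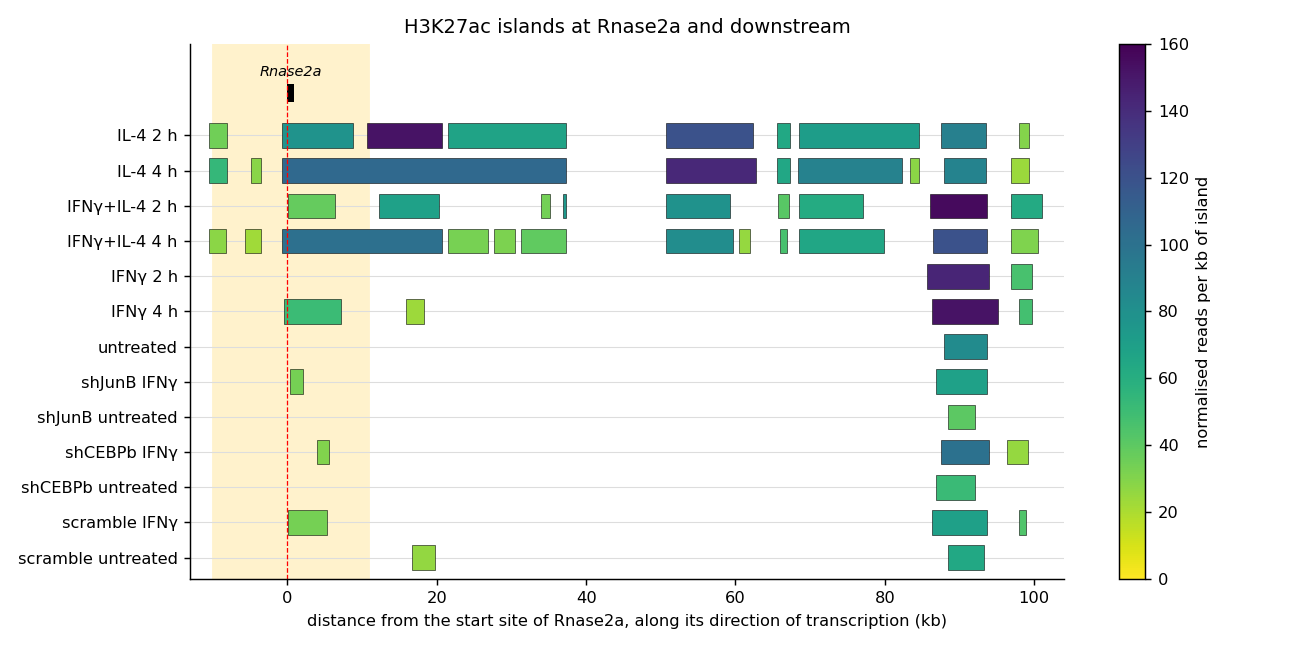
Islands (boxes) at Rnase2a and downstream of it in each library against distance from its start in kb; colour gives normalised reads per kb, the black bar the gene span and shading the 10 kb window. Boxes between 50.7 and 84.5 kb are present in the 4 libraries with IL-4 only, and the box over Rnase2b, 85.7 to 95.1 kb from the start, is present in all 13.

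Rnase2a sits at the edge of a cluster of related RNase genes, and its elements differed in pattern. The stretch from the start to 37.3 kb downstream held 3310 normalised reads with IL-4 at 2 h and 4015 at 4 h, 859.7 with both cytokines at 2 h and 2675 at 4 h, 441.1 with IFNγ at 4 h, and none called in untreated cells. Elements over Ang2 and Ear14, 50.7 to 62.7 kb downstream, held 677 normalised reads with both cytokines against 1387 with IL-4 alone at 2 h, and 774 against 1709 at 4 h. The element 68.3 to 84.5 kb downstream held 537 against 1145 at 2 h and 744 against 1287 at 4 h. Neither was called in any of the 9 libraries without IL-4.

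Further along the cluster, the element over Rnase2b, 85.7 to 95.1 kb downstream, was higher with IFNγ. It was called in all 13 libraries, at 547 and 494 normalised reads with IL-4 at 2 h and 4 h, 1186 and 861 with both cytokines, 1174 and 1337 with IFNγ alone, and 485 in untreated cells. With both cytokines it was 2.17-fold higher than with IL-4 alone at 2 h (1.96 to 2.41) and 1.74-fold higher at 4 h (1.58 to 1.93). With IFNγ at 4 h it was 3.26-fold above untreated in shJunB cells (2.71 to 3.95), 2.38-fold in shCEBPb cells (2.07 to 2.73) and 1.68-fold in scramble cells (1.43 to 1.98).

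Over the whole stretch of 8 elements, called islands summed to 6628 normalised reads over 74.4 kb with IL-4 at 2 h and 7847 over 78.8 kb at 4 h, 3582 over 46.2 kb with both cytokines at 2 h and 5325 over 73.6 kb at 4 h, 1304 over 11 kb with IFNγ at 2 h and 1863 over 20.6 kb at 4 h, and 485 over 5.80 kb in untreated cells. RNase genes of this cluster are close copies of each other. The deposited files are marked as holding uniquely mapped reads, and control reads were sparse, 3.55 per kb in the 38 kb island against 13.1 per kb in the Chil4 upstream island. Levels here are therefore compared between libraries and not with those of the other members.

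Both cytokines were set against IL-4 alone for all members. At 2 h, 3 of the 3 members with an island passed the rule as lower, Chil3, Chil4 and Rnase2a, against 8.06% of 14672 genes tested. At 4 h 2 of 4 passed, Chil3 and Chil4, against 5.87% of 14708 genes. Chil3 counts here through the filled-in value, since it was not called with both cytokines. Set against IFNγ alone, members with both cytokines passed as higher in 2 of 2 cases at 2 h (4.19% of all genes tested) and 3 of 3 at 4 h (6.97%), of which Retnla rests on the window edge described above. Chil4 at both times and Rnase2a at 2 h had no island with IFNγ alone and were set against the filled-in value.

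Between times, 1 of 4 members, Retnla, passed as higher at 4 h than at 2 h of IL-4 (2.3% of all genes tested), and 2 of 3, Retnla and Rnase2a, at 4 h than at 2 h of both cytokines (7.23%). At 2 h the upstream island was present in both libraries but ended outside the Retnla window. With the upstream island counted at both times (11 kb window), IL-4 at 4 h against 2 h still gave a log2 ratio of 1.99 for Retnla. At the upstream element itself the 4 h level was 3.0-fold the 2 h level with IL-4 (2.67 to 3.38) and 6.63-fold with both cytokines (5.46 to 8.11). The called islands were also longer at 4 h, 10.2 against 5.2 kb with IL-4 and 9.8 against 2 kb with both cytokines. Reads per kb of island were 112 against 73.2 with IL-4 and 76.8 against 56.8 with both cytokines.

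**Figure D5:**
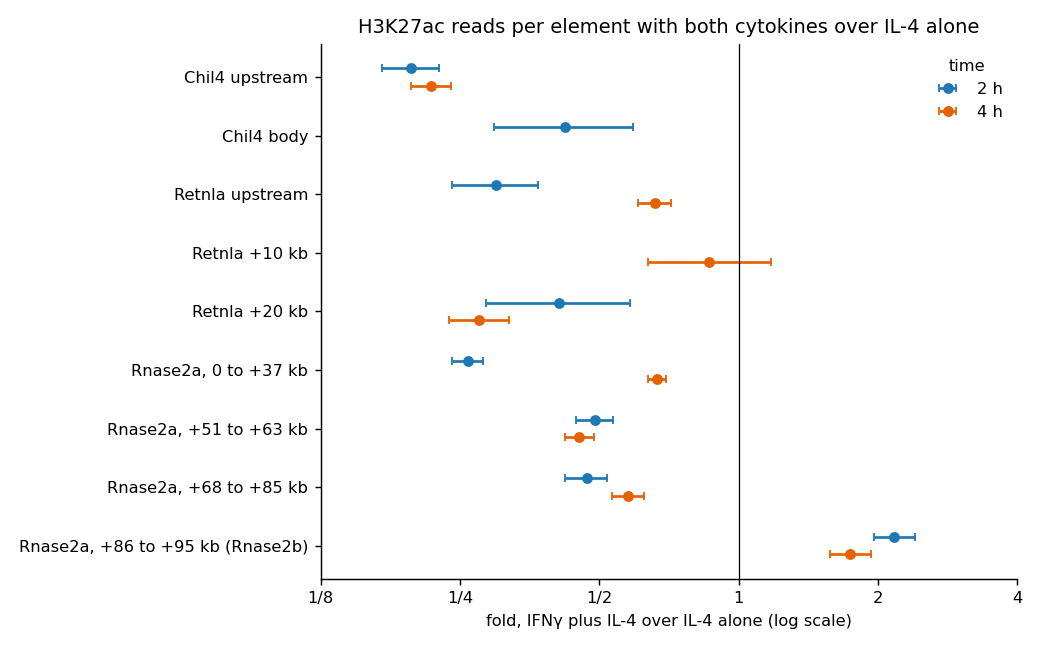
Fold of IFNγ plus IL-4 over IL-4 alone (horizontal axis, log scale) for elements called in both libraries, at 2 h (blue) and 4 h (orange), with exact binomial 95% intervals that cover counting error only. Chil4 upstream lies at 0.196 and 0.216, Retnla upstream (0.298 and 0.659) and Rnase2a (0.260 and 0.666) are nearer to 1 at 4 h, and the Rnase2b element lies above 1. The folds compare summed reads, so they include differences in called island length.

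In the cells with an shRNA only IFNγ was tested, and Rnase2a was the single member with an island. Acetylation at the targeted genes does not measure knockdown. Islands near Junb held 7060 normalised reads in shJunB cells with IFNγ against 6270 untreated, and 7234 in scramble cells with IFNγ against 6232 untreated. Islands near Cebpb held 12202 in shCEBPb cells with IFNγ against 2975 untreated, 12118 in shJunB cells with IFNγ against 2957 untreated, and 4654 in scramble cells with IFNγ against 3179 untreated. At Rnase2a, shJunB cells with IFNγ had 60.3 normalised reads (55 raw), shCEBPb cells with IFNγ 48.7 (49 raw) and scramble cells with IFNγ 173.4 (106 raw), while the 3 untreated libraries had no island within 10 kb. Untreated scramble cells had an island of 77.8 normalised reads outside the window, 16.7 to 19.7 kb downstream of the start.

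Rnase2a passed as higher with IFNγ than untreated in scramble cells (8.27% of genes tested did). It did not in shJunB cells (9.58% of genes) or in shCEBPb cells (9%). The untreated side of these comparisons was the filled-in value. Among the cells with IFNγ, Rnase2a was 2.88-fold lower in shJunB than in scramble cells (2.06 to 4.06) and 3.56-fold lower in shCEBPb than in scramble cells (2.51 to 5.10), and it passed as lower in both (2.29% and 1.27% of genes tested). The islands with shJunB and shCEBPb were 1.80 and 1.60 kb long, against 5.20 kb in scramble cells. Reads per kb of island were alike, 33.5 with shJunB, 30.4 with shCEBPb and 33.3 in scramble cells, so the folds go with called length. The shJunB island lay 0.312 to 2.11 kb downstream of the start. The shCEBPb island lay 3.91 to 5.51 kb downstream, so it overlapped neither the shJunB island nor the gene span. Reads of these 2 islands lay near the 5th percentile of islands in their libraries (55.9 and 57.6 normalised reads). They are therefore close to what the caller can list. The scramble library with IFNγ was also the shallowest.

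Relatives of the members differed from each other with IL-4. At 4 h of IL-4, 9.19% of all genes tested passed as higher and 11.9% as lower, which is the background of the family counts. Of 10 chitinase family genes, the members included, 7 had an island in some library. Chid1, a lysosomal chitinase-domain protein, reached 6106 normalised reads in untreated scramble cells. Chit1, the active chitinase of macrophages, had 2127 normalised reads with IL-4 at 2 h and 86.2 at 4 h, 457 and 449 with both cytokines, 3242 and 3942 with IFNγ alone, and 2432 in untreated cells. At 4 h of IL-4 2 family genes passed as higher, Chil3 and Chil4, and 1, Chit1, as lower, of 7 tested.

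All 4 resistin family genes had an island. At 4 h of IL-4, Retnla, Retnlb and Retnlg passed as higher, though Retnlb shares the upstream element with Retnla. Retn, which encodes resistin, passed as lower, with 799 normalised reads with IL-4 against 2373 in untreated cells. Of 20 RNase A family genes 15 had an island, and 6 passed as higher, Rnase2a included, and 1 as lower of 14 tested at 4 h of IL-4. Rnase4 and Ang share their islands, with 3064 normalised reads at 2 h of IL-4 as their highest value. Ang2, an angiogenin copy in the Rnase2a cluster, reached 3080 normalised reads at 4 h of IL-4. Part of this lay in an island it shares with Ear14, so Ang2 and Ear14, both among the 6, are not separate signals. Rnase10, also among the 6 and named after its values were seen, had 337 normalised reads in untreated cells and 753 at 4 h of IL-4. Its highest value, 1793, was with IFNγ alone at 4 h. Ang5 and Ang6, named here after their values were seen, had 1477 and 2060 normalised reads at 4 h of IL-4. Ear1, Ear2 and Ear6 had no island in any library, and whether reads can be placed uniquely at them was not tested.

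Other genes of alternative activation were followed through a list of 44, of which 43 matched. This list was chosen with earlier results of these data known, so its counts and medians are a description and not a test. With IL-4 at 2 h 28 of 39 tested passed as higher and 3 as lower, against 10.6% and 12.4% of all genes tested, with a median log2 ratio of 1.69 against 0.03 over all genes tested. At 4 h it was 26 of 40 higher and 1 lower, against 9.19% and 11.9%, with a median of 1.33 against -0.01. The highest log2 ratios at 4 h were those of Flt1 (7.68), a receptor for vascular endothelial growth factor, Il31ra (7.33), a cytokine receptor chain, Cdh1 (6.84), which encodes E-cadherin, and Tmem26 (6.18). Il31ra and Tmem26 had no island in untreated cells, so their ratios rest on the filled-in value. The lowest were F13a1 (-1.52), coagulation factor XIII A, and Pparg (-0.77), a nuclear receptor.

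Set against IL-4 alone, both cytokines gave a median log2 ratio for this list of -0.21 at 2 h, with 4 genes higher and 11 lower of 40 tested, against 12.5% and 8.06% of all genes tested. At 4 h the median was -0.00045, with 6 genes higher and 8 lower of 41, against 12.8% and 5.87%. Mgl2, a lectin of alternatively activated macrophages named here after its values were seen, had 2097 normalised reads with both cytokines against 4299 with IL-4 alone at 2 h and 5902 against 5452 at 4 h.

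Genes elsewhere in the genome were ranked by Pearson correlation with each member on the log2 scale over the 13 libraries, filled-in values included, leaving out genes within 1 Mb. The 13 points share normalisation, and filled-in values are 11 of them for Chil3, 9 for Chil4, 10 for Retnla and 5 for Rnase2a. Closest to Chil3 were Prelp (r = 0.998), Optc (0.998), which has the same values as Prelp in the IL-4 libraries, and Prps1l1 (0.998). Chil4 was most like Hebp2 (0.994), Scn3a (0.991) and Ms4a3 (0.990). Ms4a3 had 5806 and 5121 normalised reads with IL-4 at 2 h and 4 h, against 1173 and 802 with both cytokines. For Retnla they were Lipm (0.965), Dppa1 (0.954) and Ccdc141 (0.927), and for Rnase2a Xrcc5 (0.970), Erich5 (0.958) and Tmem26 (0.955). Among the members themselves r ran from 0.48 for Chil3 with Retnla to 0.88 for Chil4 with Rnase2a.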

How the data were processed

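H3K27ac ChIP-seq was measured in 13 libraries, 1 per condition. Per the submitters' processing notes, reads were aligned with Bowtie2 2.2.6 and islands called with SICER 1.1, with builds mm10 and GRCm38. The deposited files give, for each island, raw ChIP and control read counts, a p-value and FDR (highest 0.00999) and a fold ratio over the control. They list called islands only, so a missing island is no measurement of 0. Island starts count from 0 and were shifted to 1-based. One control served all libraries (equal control reads for 29680 of 29680 islands with shared coordinates). Depth was recovered from the rounding of the deposited fold, a step tested on simulated data. Gene spans came from RefSeq GRCm38.p6.

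A gene's reads were summed over whole islands overlapping its span plus 10 kb by at least 1 bp, then divided by median-of-ratios size factors. A gene called in 1 library only was never counted as lower in that library, a rule added after the data were seen. Fold intervals are Clopper-Pearson. Named were the 4 members, the 4 other family genes with most reads (Rnase4 and Ang tie), the 4 highest and 2 lowest alternative activation genes at 4 h of IL-4, and the 3 genes most like each member. Members and lists were chosen with earlier results of these data known. Python 3.11.15, numpy 2.4.6, pandas 2.3.3, scipy 1.17.1 and Biopython 1.88 were used. Alternatives were a span alone, 11 kb or 50 kb window, shares inside the window, stricter islands, control subtraction, recovered depth, union regions and another fill.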

Additional observations from a re-analysis of the deposited data

Results flagged for a closer look

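Summed reads at the upstream element of Retnla moved in opposite directions between sets of cells under the same contrast, and between times with both cytokines. IFNγ at 4 h over untreated was 3.96-fold in the cells with no shRNA named and 1.25-fold in shJunB cells, but 0.634-fold in scramble cells and 0.781-fold in shCEBPb cells. Both cytokines over untreated were 3.21-fold at 4 h and 0.485-fold at 2 h. The 2 h value goes with a shorter called island, 2 kb against 4.6 kb in untreated cells. Reads per kb of island went the other way, at 56.8 with both cytokines at 2 h against 50.9 untreated. Each condition has 1 library, so the difference between these effects was not tested.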

How the results depend on the processing

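Of the log2 ratios of single members, 391 kept their direction and side of the size rule under the alternatives, 8 newly passed it and 6 reversed. All 6 are Retnla at 4 h, whose upstream island is counted or not by the window. IFNγ against untreated gave a log2 ratio of 2.10 with a 50 kb window, 1.98 with union regions and 1.98 with 11 kb. Both cytokines against IFNγ gave -0.035, -0.18 and -0.18. Of the 8, both cytokines against IL-4 at Retnla at 4 h gave -2.45 (shares inside the window), -2.75 (span alone) and -1.14 (50 kb), IL-4 at 4 h against 2 h gave 2.46 (span alone) and 2.36 (larger overlap) at Rnase2a and 1.92 (3-fold islands) at Chil3, both cytokines at 4 h against 2 h gave 2.98 (3-fold islands) at Chil4, and IFNγ in shJunB cells gave 1.29 (another fill) at Rnase2a. Libraries with an island at Retnla were 1 with the span alone and 12 with 50 kb or 11 kb, and at Chil3 1 with islands at least 3-fold over the control. Members passing with IFNγ, in either direction, were 1 at 2 h and 2 at 4 h with 50 kb, union regions or 11 kb; the addition is Retnla, lower at 2 h, where its upstream element was not called, and higher at 4 h. Requiring 3-fold islands left 1 member at 2 h for both cytokines, against untreated and against IFNγ alone. The 11 kb window was chosen after seeing the data. All 102 other member counts and 20 other library counts stayed within 1.5 times.

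Counts over all genes moved by over 1.5 times with islands at least 3-fold over the control: 2195 higher with IL-4 at 4 h (1331 as reported), 1664 lower with both cytokines than with IL-4 at 4 h (864), 1280 higher with both than with IFNγ at 2 h (609), 910 higher at 4 h than at 2 h of IL-4 (330, and 531 after control subtraction), and 2070 higher with IFNγ in shCEBPb cells (1343). Genes lower than in scramble cells with IFNγ ran from 188 to 1112 for shJunB (333) and from 63 to 730 for shCEBPb (185). No replicate could be left out. No paired analysis was possible because each condition has 1 library. Depth and the caller's threshold limit what a library with no island can show.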
